A study of Mus musculus with 6 samples.

Results

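*Ecel1* and its relatives form the neprilysin family of zinc endopeptidases. The genes examined were *Ecel1*, *Ece1*, *Ece2*, *Mme*, *Mmel1* and *Phex*, 6 genes named by symbol. Of these, 5 are among the 13886 genes of the authors' table and 1, *Phex*, is not listed. *Ecel1* was chosen by its measured difference between the treatments, so that difference is given as a description with no test, and the other members were taken for their kinship with it. RNA came from the medial amygdala (MeA) of Kiss1Cre+/Rpl22HA+/+ female mice, in which Cre made under the *Kiss1* promoter puts a hemagglutinin (HA) tag on the ribosomes of *Kiss1* cells, and ribosome-bound RNA was pulled down through that tag. Ovaries were removed (OVX) from every female when 8 weeks old, in both groups, and the mice were given estradiol (E2) from a capsule for 4 days to drive Cre, and then left for 7 days without it. The OVX group (3 libraries) then received nothing, and the E2 group (3 libraries) received E2 again for 5 days, with MeA punches of 4 mice pooled in each library. The labels do not say that libraries with the same number share a litter or a day, so p-values measure the spread between pools.

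Members of this family sit in cell membranes with the catalytic part outside the cell or inside secretory vesicles, and they cut short peptides. Neprilysin (*Mme*) ends the action of enkephalins, substance P and natriuretic peptides and degrades amyloid beta, while the endothelin-converting enzymes (*Ece1* and *Ece2*) cut the endothelin precursor to its active form. *Ecel1*, also called damage-induced neuronal endopeptidase, is made mainly by neurons, rises in injured nerve cells and is needed for motor axons to branch in muscle, and its natural substrate is not settled.

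In these libraries *Ecel1* was the most abundant listed member per kilobase of transcript. It was 2.22-fold higher with E2, the difference by which it was chosen and which carries no test. The other listed members were tested between treatments and did not pass. *Ece2* was higher in each E2 library than in each OVX library, *Mme* and *Mmel1* were lower in each, and *Ece1* overlapped between the groups. Such groups without overlap were found for 13.7% of all genes, and *Mmel1* entered the table through its OVX level alone, which fixes its direction. Values are the authors' log2 CPM, the log2 of read counts scaled to a common library size, and differences are E2 minus OVX on that scale with their standard error (SE). They were fitted by limma over all 13886 genes with Benjamini-Hochberg adjustment, and an adjusted p under 0.05 counts as passing the test.

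The libraries had scaled sizes of 28.1M to 34.2M reads. As a check of the labelled cell type, *Cck*, taken as a marker of MeA *Kiss1* cells, had a mean log2 CPM of 9.09, and of 2 gene models of *Kiss1* the one with the higher level rose from 1.75 ± 0.59 (SD, n = 3) in OVX to 3.66 ± 0.19 (SD, n = 3) with E2 (adjusted p = 0.00475). The other model stood at -5.82, -0.65 and 0.10 log2 CPM in OVX and at 2.97, 3.18 and 2.65 in E2 replicates 1, 2 and 3. It met the authors' minimum of a mean above 1 CPM through the E2 group alone. That listing fixes its direction, so no test is given for it. Among other genes taken as markers of these cells, *Esr1*, the estrogen receptor alpha gene, fell from 5.16 ± 0.20 (SD, n = 3) to 4.45 ± 0.14 (SD, n = 3), a difference of -0.70 (adjusted p = 0.0189). *Pgr*, the progesterone receptor gene, had a difference of 0.32 (adjusted p = 0.392) and *Cck* one of 0.24 (adjusted p = 0.295). Genes of cells outside the *Kiss1* lineage were also present, with all 6 astrocyte, all 6 oligodendrocyte and all 6 endothelial and mural markers listed. Input or Cre-negative libraries were not analysed here, so the share of each member's reads that came from *Kiss1* cells is not known. In RNA from pooled cells, more cells making a gene and more RNA per cell cannot be told apart.

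*Ecel1* (ENSMUSG00000026247) lies on the minus strand of chromosome 1, at chr1:87147655-87156521 on GRCm38, and its longest transcript in GENCODE release M21 has 18 exons and 3033 nt. None of its exonic bases lie in exons of another protein-coding gene. Promoter windows from 250 bases before to 50 after each RefSeq start (GRCm38.p6) were held for all 6 members. They were searched on both strands for the estrogen response element GGTCANNNTGACC, for its single arm GGTCA, for the Sp1 GC box GGGCGG, for the AP-1 motif TGANTCA and for the cAMP response element TGACGTCA. The single arm is part of the full element, so any full element would count under both. The *Ecel1* window held 0 matches to any of the 5 motifs, and no member's window held the full estrogen element. The single arm was present in the window of *Mmel1* and in 1 of 4 windows of *Ece1*, and the GC box in windows of *Ece1*, *Ece2*, *Mme* and *Mmel1*. The AP-1 motif was in 2 of 3 windows of *Mme*, which overlap and hold the same site. Among all 32851 mouse windows, 40.5% held the single arm, 35.7% the GC box, 7.81% AP-1, 1.79% the cAMP element and 0.07% the full estrogen element. Stretches upstream of every annotated exon of the gene follow, 5′ to 3′ along the gene, for *Ecel1* and for *Ece2* and *Mmel1*, whose OVX and E2 libraries did not overlap either. This held for *Mme* too, whose windows lie inside its GENCODE gene model and are not shown. Capitals mark matches to the 5 motifs.
*Ecel1*, chr1:87156522-87156606, minus strand: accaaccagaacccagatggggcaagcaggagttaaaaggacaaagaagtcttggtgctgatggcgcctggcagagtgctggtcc
*Ece2*, chr16:20629601-20629827, plus strand: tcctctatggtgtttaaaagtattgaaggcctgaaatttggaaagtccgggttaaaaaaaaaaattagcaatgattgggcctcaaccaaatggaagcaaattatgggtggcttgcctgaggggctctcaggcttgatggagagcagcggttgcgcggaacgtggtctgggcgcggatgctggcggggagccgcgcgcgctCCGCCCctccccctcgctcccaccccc
*Mmel1*, chr4:154869335-154869584, plus strand: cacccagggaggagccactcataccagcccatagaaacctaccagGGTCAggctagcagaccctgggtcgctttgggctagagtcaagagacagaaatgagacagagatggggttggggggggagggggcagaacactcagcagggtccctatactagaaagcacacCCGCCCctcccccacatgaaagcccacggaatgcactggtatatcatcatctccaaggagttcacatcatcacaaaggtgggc
The stretch of *Ecel1* shown is 85 bases, since GENCODE starts the gene further upstream than RefSeq does. That of *Ece2* lies inside an intron of the read-through gene model Gm49333 and carries 1 GC box, and that of *Mmel1* overlaps an exon of the antisense RNA Gm13112 and carries 1 single arm and 1 GC box. A match is a description of the letters, and neither a match nor its absence in this short window says where the estrogen receptor binds.

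In log2 CPM, *Ecel1* stood at 6.15, 6.25 and 6.45 in OVX replicates 1, 2 and 3 and at 7.63, 7.33 and 7.35 in E2 replicates 1, 2 and 3. Every E2 library was above every OVX library, and the lowest E2 value stood 0.88 above the highest OVX value. On the linear scale this was 78.3 ± 8.27 CPM (SD, n = 3) in OVX and 174 ± 20.7 CPM (SD, n = 3) with E2. The difference was 1.15 (SE 0.09), or 2.22-fold with a 95% interval of the fit from 1.94 to 2.54. Here limma draws the SE toward that of other genes at this level, which narrows the interval. Without the trend the SE was 0.12. These values rest on many reads, since the counts rebuilt from the log2 CPM were 2013 to 2607 in OVX libraries and 5292 to 5987 in E2 libraries.

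**Figure D1:**
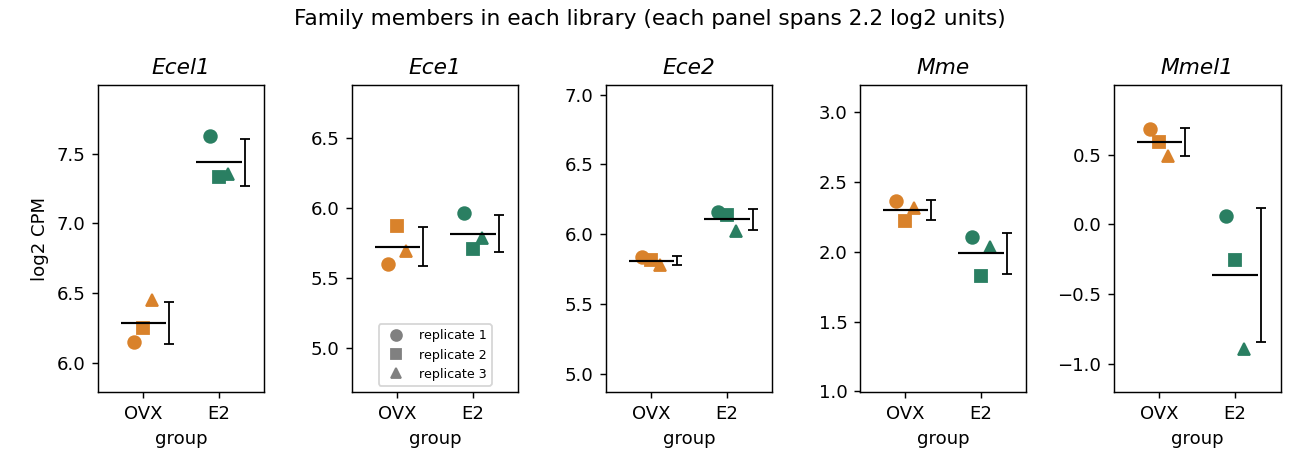
Log2 CPM of the 5 listed members (vertical axes, all drawn to one scale) in OVX and E2 libraries, with 1 point per library, a line at the group mean and a bar of ± 1 SD (n = 3). *Ecel1* runs from 6.15 to 6.45 in OVX and from 7.33 to 7.63 with E2, *Ece1* overlaps between groups, and *Mme* and *Mmel1* are lower in each E2 library.

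Among all genes, 72 of 13886 had a larger absolute difference than *Ecel1*. Most of those had a mean log2 CPM under 2: 9 of the 11911 genes with a mean log2 CPM of at least 2 had a larger difference, and 0 of the 1991 genes at or above the level of *Ecel1* did. The within-group SD of *Ecel1* (0.16) stood at the 60.9 percentile of all genes, whose median was 0.13. That ranking takes in genes of every level, so it does not say how tight *Ecel1* was for its own level. As *Ecel1* was chosen by this contrast, its place in these ranks describes how it was found.

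The *Ecel1* difference stayed between 1.06 and 1.23 when each library was left out in turn, and between 1.14 and 1.16 with other scalings, weights or pseudocounts. The lowest value came without E2 replicate 1, the library with the highest *Ecel1* level. These fits reuse the contrast that chose *Ecel1*, so they describe how far the value moved and are no separate support for it. Markers of forebrain excitatory neurons differed between the groups as well. Of the 6, 6 had a negative difference, 1 did not overlap between groups and 0 passed the test, and their summed level was 880.3 to 1137 CPM in OVX and 668.2 to 871.1 CPM in E2 libraries. Their summed level was thus lower in every E2 library than in every OVX library, by a narrow margin. Their mean log2 CPM overlapped between the groups, at OVX replicate 3 and E2 replicate 3. With the mean log2 CPM of these 6 genes added as a covariate, the *Ecel1* difference was 0.90 (SE 0.11), or 78.2% of the value without it. This covariate goes partly with the treatment, so their parts cannot be fully told apart.

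**Figure D2:**
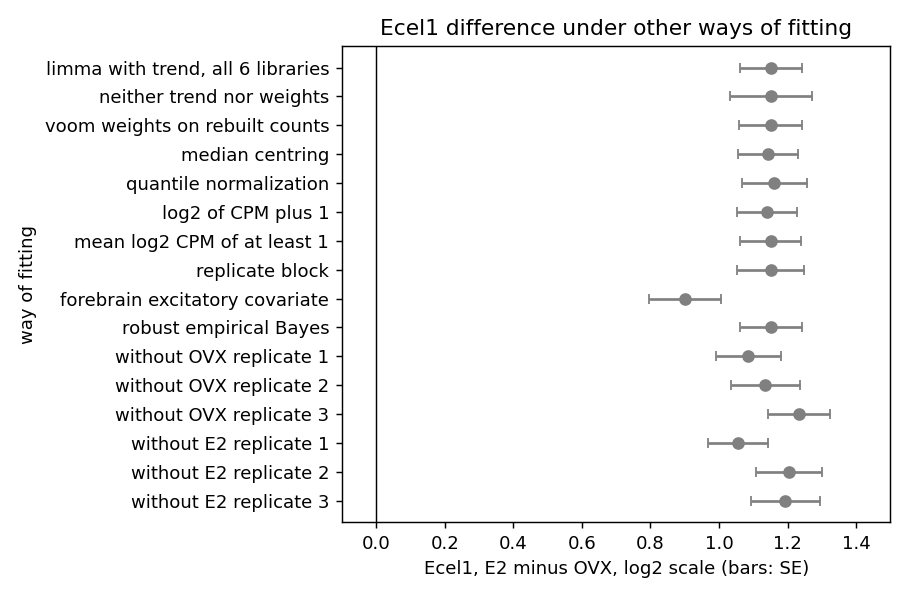
*Ecel1* difference between E2 and OVX on the log2 scale (horizontal axis, bars ± SE) under each way of fitting (rows). Every value lies above 0, the one with the forebrain excitatory covariate is 0.90, and all others lie between 1.06 and 1.23. All fits reuse the contrast that chose *Ecel1*.

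By the root mean square difference between profiles centred on their own mean over the 6 libraries, the 5 genes most like *Ecel1* were *Rasd1*, *Rcn1*, *Nmb*, *Lmcd1* and *Sult1a1*. The measure was 0.12 for *Rasd1*, a small G protein, 0.14 for *Rcn1*, a calcium-binding protein of the endoplasmic reticulum, and 0.14 for *Nmb*, the gene of the peptide neuromedin B. It was 0.18 for *Lmcd1* and 0.19 for *Sult1a1*, a sulfotransferase, against a median of 0.60 over all genes and 0.59 for a profile with no change at all. Their differences ran from 0.97 (SE 0.16) for *Lmcd1* to 1.24 (SE 0.36) for *Nmb*. Their levels were lower, from a mean log2 CPM of 0.06 for *Nmb* to 5.87 for *Rcn1* in OVX. Within the family the measure was 0.45 for *Ece2*, 0.54 for *Ece1*, 0.74 for *Mme* and 1.08 for *Mmel1*, each farther than any of these 5 genes. As likeness here is likeness to the profile that chose *Ecel1*, it carries no test.

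*Ece2* (ENSMUSG00000022842, chr16:20629828-20646485, plus strand) encodes an endothelin-converting enzyme of neurons and endocrine cells that works at acid pH, inside the secretory pathway. Its log2 CPM was 5.84, 5.82 and 5.78 in OVX replicates 1, 2 and 3 and 6.16, 6.14 and 6.02 in E2 replicates 1, 2 and 3. The groups did not overlap and the spread was narrow, with a within-group SD of 0.06 at the 9.55 percentile of all genes. The difference was 0.29 (SE 0.07), a fold of 1.23 with a 95% interval of 1.11 to 1.36, and it did not pass the test (adjusted p = 0.134 by limma, and 0.095 to 0.997 over the alternatives). Of its 5110 exonic bases, 2937 (57.5%) also lie in exons of Gm49333, a read-through model on the same strand that is not listed in the table, and a read there fits either model by its position.

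*Ece1* (ENSMUSG00000057530, chr4:137862237-137965229, plus strand) encodes the enzyme that makes endothelin 1 in blood vessels and is also present in neurons. Its log2 CPM was 5.60, 5.87 and 5.69 in OVX replicates 1, 2 and 3 and 5.96, 5.70 and 5.78 in E2 replicates 1, 2 and 3, and the groups overlapped. The difference was 0.09 (SE 0.09, adjusted p = 0.850 by limma), and the 95% interval of its fold was 0.93 to 1.22. The summed level of the 6 endothelial and mural markers was 149.3, 284 and 139.2 CPM in OVX and 232.3, 172.5 and 214.4 CPM in E2 replicates 1, 2 and 3. In each group the library with the most *Ece1* was also the one with the most of these markers, OVX replicate 2 and E2 replicate 1, and the part of vessel RNA in *Ece1* was not tested. *Ece2* was compared with *Ece1* within libraries: their log2 ratio was 0.09 ± 0.15 (SD, n = 3) in OVX and 0.29 ± 0.13 (SD, n = 3) with E2, a difference of 0.20 that did not pass an exact two-sided permutation test (p = 0.2, smallest possible 0.1, adjusted p = 0.2 over 2 ratios).

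*Mme* (ENSMUSG00000027820, chr3:63241537-63386030, plus strand), the gene of neprilysin, was scarce. Its log2 CPM was 2.36, 2.22 and 2.31 in OVX and 2.11, 1.83 and 2.03 in E2 replicates 1, 2 and 3, on rebuilt counts of 120 to 159 per library. Each E2 library was below each OVX library by at least 0.11. The difference of -0.31 (SE 0.21) did not pass the test (adjusted p = 0.763 by limma), with a fold of 0.81 and an interval of 0.59 to 1.11. The SE is larger than the spread of *Mme* itself (within-group SD 0.11), since limma draws it toward that of other genes at this low level, and without the trend it was 0.09 (adjusted p = 0.617).

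*Mmel1* (ENSMUSG00000058183, chr4:154869585-154895528, plus strand) encodes a close relative of neprilysin that can be released from cells and is best known from testis. It was the lowest listed member, at 0.69, 0.59 and 0.49 log2 CPM in OVX and at 0.06, -0.25 and -0.89 log2 CPM in E2 replicates 1, 2 and 3. Rebuilt counts were 39 to 51 in OVX and 17 to 31 in E2 libraries, so counting error is part of the spread. The difference was -0.95 (SE 0.46, adjusted p = 0.600 by limma), a fold of 0.52 with an interval of 0.26 to 1.02. The mean was 1.51 ± 0.10 CPM (SD, n = 3) in OVX and 0.81 ± 0.25 CPM (SD, n = 3) with E2, so *Mmel1* met the authors' minimum of a mean above 1 CPM through the OVX group alone. A gene listed through 1 group alone had to be lower in the other. With 1 added to each CPM the difference was -0.48. In its exons 25 bases are shared with *Fam213b* on the other strand, and the libraries kept no strand. The log2 ratio of *Mmel1* to *Mme* was -1.71 ± 0.10 (SD, n = 3) in OVX and -2.35 ± 0.49 (SD, n = 3) with E2, and as the listing of *Mmel1* favours this direction no test is given.

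*Phex*, whose loss causes inherited low blood phosphate through bone cells, lies at chrX:157162075-157415312. It is not in the table, nor is *Kel*, the blood group member of the family. The table holds genes above the authors' minimum, so the level of either gene is not known.

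**Figure D3:**
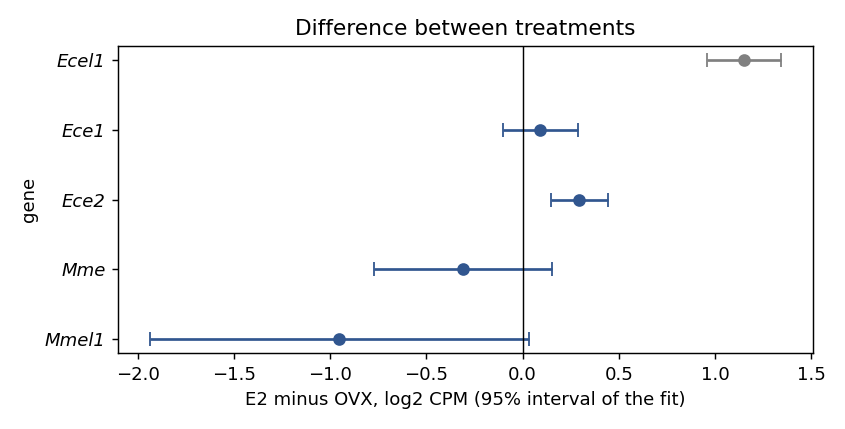
Difference between E2 and OVX in log2 CPM (horizontal axis) for the 5 listed members, with the 95% interval of the limma fit. *Ecel1* (grey, given as a description) is at 1.15, *Ece2* at 0.29, *Ece1* at 0.09, *Mme* at -0.31 and *Mmel1* at -0.95.

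Across all genes 40 passed the test, 0.288% of those tested, and 32 of them were higher with E2, which is 0.230%. *Ecel1* is 1 of the 32, as its choice requires. Of the 4 other listed members 0 passed it with limma, 0 passed it with voom weights on rebuilt counts, and 1 (*Ece2*) had an unadjusted p under 0.05, as did 8.56% of all genes. Groups did not overlap for 3 of these 4, with 1 higher (*Ece2*) and 2 lower (*Mme* and *Mmel1*). Without *Mmel1*, whose direction its listing fixed, it was 2 of 3, with 1 higher and 1 lower. Over all genes the groups did not overlap for 13.7%, with 6.85% higher and 6.82% lower with E2, and with so few members nothing is read from the difference.

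Levels of different genes were compared per kilobase of the longest transcript, as log2 CPM minus log2 of the length in kilobases. *Ecel1* came first with a mean over the 6 libraries of 5.26 (rank 1759 of 13873 genes with a length). *Ece2* had 4.17 (rank 3748) and *Ece1* 3.50 (rank 5495), and far below them came *Mme* with -0.86 (rank 13143) and *Mmel1* with -1.44 (rank 13535). So the converting enzymes and *Ecel1* were in the upper or middle part of the table and the neprilysins near its floor. The gap between *Ece1* and *Mme* was 4.36, against 1.09 between *Ecel1* and *Ece2*, 0.67 between *Ece2* and *Ece1* and 0.58 between *Mme* and *Mmel1*. The gap between *Ecel1* and *Ece2* spans both treatments, and was 0.66 in OVX and 1.52 in E2 libraries, a change that holds the contrast by which *Ecel1* was chosen. The gap between *Mme* and *Mmel1* was 0.26 in OVX and 0.90 in E2 libraries. The listing of *Mmel1* through OVX alone favours a wider gap with E2. Each upper neighbour was higher in 6 of 6 libraries, which gave p = 0.03125 for each pair by an exact two-sided sign-flip permutation test (adjusted p = 0.03125 over the 4 pairs). This is the smallest p that test can give over 6 libraries. The p-values of *Ecel1* over *Ece2* and of *Mme* over *Mmel1* hold that choice and that listing. The order itself came from these libraries, so no p-value is separate support for it. The order did not change with other lengths, but its adjusted p-values did. With the union of all exons the gap was 1.45 for *Ecel1* over *Ece2* and 4.75 for *Ece1* over *Mme* (adjusted p = 0.0625 each by the exact permutation test). It was 0.24 for *Ece2* over *Ece1* (0.0833) and 0.30 for *Mme* over *Mmel1* (0.188). The gaps of 1.45 and 4.75 were wider than with the longest transcript. Their adjusted p rose only through the other pairs in the adjustment. With the coding length *Ece2* and *Ece1* differed by 0.17 (exact permutation, adjusted p = 0.0938), so these neighbours are not clearly apart, and *Mme* and *Mmel1* by 2.09, a larger gap than with either other length.

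**Figure D4:**
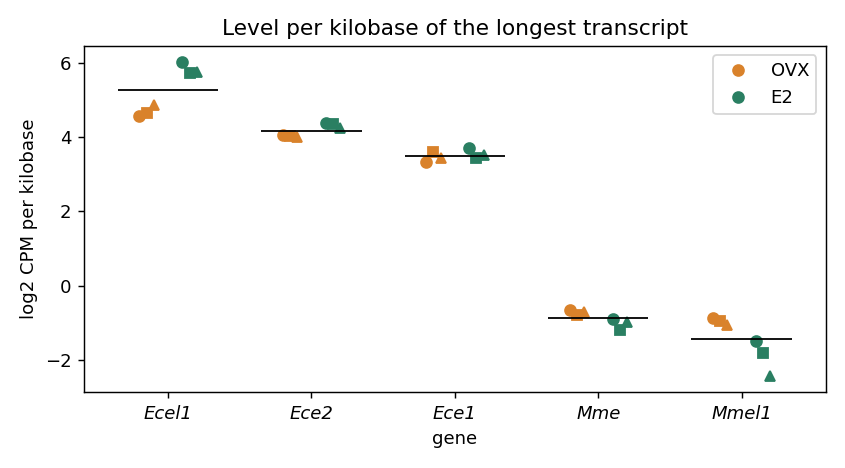
Log2 CPM per kilobase of the longest transcript (vertical axis) of the 5 listed members, 1 point per library with OVX left (orange) and E2 right (green) of each gene, replicates 1, 2 and 3 as circles, squares and triangles, and a line at the mean of the 6 libraries. *Ecel1*, *Ece2* and *Ece1* lie at 3.33 or above in every library, and *Mme* and *Mmel1* below 0.

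The listed members summed to 54.2 ± 2.66 CPM per kilobase (SD, n = 3) in OVX and 89.9 ± 8.58 with E2. *Ecel1* held 45.7%, 45.9% and 50.9% of that sum in OVX and 65.4%, 62.4% and 63.5% in E2 replicates 1, 2 and 3. In E2 libraries it was thus most of the family's RNA, and in OVX libraries it ranged around an even share with the others together. Without *Ecel1* the sum was 28.4 ± 1.02 in OVX and 32.5 ± 1.84 with E2. *Mme* and *Mmel1* together never exceeded a few percent of the sum, with *Mme* at 1.13% ± 0.10 (SD, n = 3) in OVX and 0.552% ± 0.042 (SD, n = 3) with E2. These shares contain the contrast that chose *Ecel1* and are not tested.

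Genes around the family were taken from 5 lists of 47 genes in all, of which 37 are in the table. Of the 37 listed, 0 passed the test over all genes with limma, against 0.288% of all genes, and 8 had an unadjusted p under 0.05, against 8.56% of all genes. Groups did not overlap for 8 of them, 6 higher and 2 lower with E2, against 13.7% of all genes, 6.85% higher and 6.82% lower.

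Among the endothelin genes, 4 of 5 are listed, with *Edn2* absent, and their median difference was 0.21 against 0.003 for all genes. *Ednrb*, a receptor made strongly by astrocytes, had 4.26, 4.74 and 4.44 in OVX and 4.89, 4.79 and 4.76 in E2 replicates 1, 2 and 3. The groups did not overlap, and E2 minus OVX was 0.34 (SE 0.12, adjusted p = 0.422 by limma). The astrocyte markers were on the same side: 6 of 6 had a positive difference, 1 of 6 did not overlap between groups, and their summed level was 813.4 to 1020 CPM in OVX and 972.2 to 1169 CPM in E2 libraries, and their part in the *Ednrb* value was not tested. *Ednra*, the receptor of vascular muscle, had a difference of 0.33 (SE 0.24, adjusted p = 0.777), and *Edn1*, the endothelin 1 precursor that *Ece1* cuts, one of -0.32 (SE 0.47, adjusted p = 0.914) on a mean log2 CPM of 0.46.

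Of 13 precursors whose peptides family members are known to cut, 10 are listed, and *Nppa*, *Nppb* and *Adm* are not. Their median difference was 0.09, with 6 above and 4 below 0. *Cck*, the cholecystokinin precursor, had the smallest p, with a difference of 0.24 (SE 0.07, adjusted p = 0.295). *Nppc*, the precursor of C-type natriuretic peptide, had 0.45, 1.48 and 1.81 in OVX and 2.05, 1.97 and 2.03 in E2 replicates 1, 2 and 3. Its groups did not overlap, and the wide OVX spread left a difference of 0.77 (SE 0.34, adjusted p = 0.541). *Pdyn*, the dynorphin precursor, had a difference of -0.17 (SE 0.10, adjusted p = 0.691).

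Of 14 other peptidases that break down neuropeptides, 13 are listed (*Dpp4* is not), with differences from -0.30 to 0.64 and a median of 0.03, 7 above and 6 below 0. *Ace*, the angiotensin-converting enzyme, had a difference of -0.30 (SE 0.12, adjusted p = 0.487). *Ide*, the insulin-degrading enzyme, had one of 0.13 (SE 0.08, adjusted p = 0.725), and *Lnpep*, the oxytocin- and vasopressin-cleaving aminopeptidase, one of -0.09 (SE 0.06, adjusted p = 0.763), each with groups that did not overlap. For *Lnpep* the 95% interval ran from -0.22 to 0.04.

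As *Ecel1* rises after nerve injury, 8 genes of axon injury and regrowth were also examined, of which *Atf3* and *Sprr1a* are not in the table. The 6 listed genes had a median difference of 0.02. *Jun*, a transcription factor induced by injury, was lower in each E2 library, with 6.18, 6.14 and 6.13 in OVX and 5.72, 5.80 and 6.11 with E2, a difference of -0.27 (SE 0.09, adjusted p = 0.388). *Gap43*, a growth cone protein, had a difference of 0.22 (SE 0.08, adjusted p = 0.400) and *Sox11*, a transcription factor of regrowing neurons, one of 0.14 (SE 0.14, adjusted p = 0.858). The injury genes therefore had differences of either sign, and none passed the test.

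Of 7 genes of the phosphate and mineral axis in which *Phex* acts, 4 are listed and *Fgf23*, *Mepe* and *Slc34a1* are not. *Spp1*, the osteopontin gene, had 0.11, 1.81 and 1.67 in OVX and 2.34, 1.93 and 2.19 with E2, a difference of 0.96 (SE 0.39, adjusted p = 0.502) in which OVX replicate 1 stood low. *Kl*, the coreceptor of the hormone FGF23 and a gene of the choroid plexus, had a difference of -0.40 (SE 0.18, adjusted p = 0.561). All 6 choroid plexus markers, *Kl* among them, had a negative difference, 0 of 6 without overlap, with a summed level of 687 to 1076 CPM in OVX and 395.1 to 1014 CPM in E2 libraries, and their part in the *Kl* value was not tested. *Enpp1*, which makes the mineralization inhibitor pyrophosphate, had a difference of 0.19 (SE 0.20, adjusted p = 0.871).

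**Figure D5:**
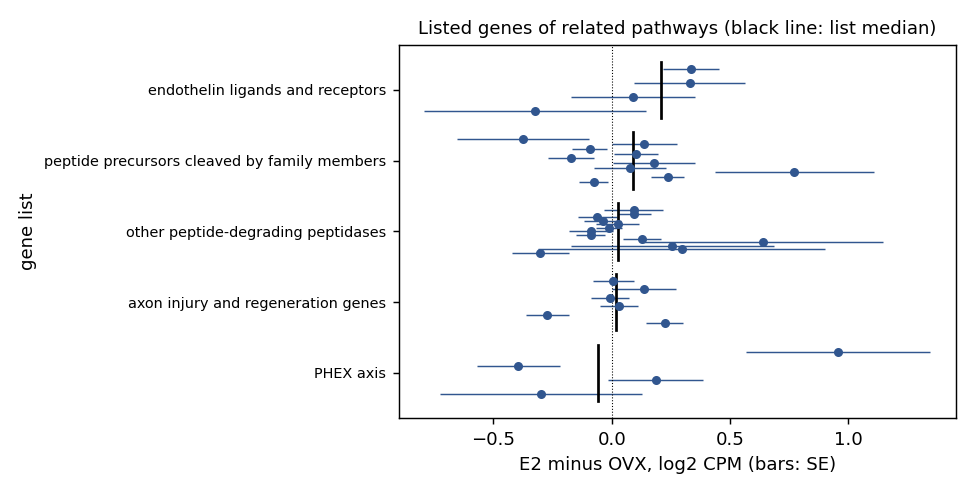
Difference between E2 and OVX in log2 CPM (horizontal axis, bars ± SE) of the 37 listed genes, in 5 rows for the 5 lists around the family, with a black line at each list's median. The medians run from -0.06 for the *Phex* axis to 0.21 for the endothelin genes, and 0 genes passed the test.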

How the data were processed

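The 6 libraries were ribosome-bound RNA pulled down from pooled MeA punches, sequenced from unstranded poly(A) libraries. According to the submitters' notes and the methods, the authors used FastQC 0.11.8, Trimmomatic 0.38, STAR 2.6.0a and RSEM on GRCm38, kept protein-coding genes, and deposited log2 CPM made with TMM scaling and voom. A second deposited table holds the authors' own log2 fold changes and p-values and was not used.

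Here limma 3.58.1 in R 4.3.3 was run on the deposited log2 CPM of the 6 libraries, comparing the treatments with no covariate and with a mean-variance trend. Two-sided p-values were adjusted by Benjamini and Hochberg's method across the 13886 genes, with a threshold of 0.05. Counts were rebuilt by taking the lowest log2 CPM of a library as a count of 0 plus 0.5. In simulated data of this size, 177 of 200 genes shifted by 1 log2 unit and 5 others were called. The shifted genes were drawn from those with a mean log2 CPM above 2, so the rate does not cover genes as scarce as *Mmel1*. Lengths came from GENCODE M21 (13873 genes) and promoters from RefSeq. Genes were named by rule: the 6 members, in each pathway list the 3 genes of smallest p and any past the threshold, and the 5 most like *Ecel1*. *Kiss1*, *Esr1*, *Pgr* and *Cck* are named from the list of *Kiss1* cell markers, of which 1 gene is not reported here, and *Fam213b* and the models overlapping members for their position. Members and lists were chosen with earlier results of these data known. Library numbers did not pair the samples (correlations of deviations -0.02, -0.12 and -0.08).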

Additional observations from a re-analysis of the deposited data

How the results depend on the processing

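With 3 pools per group, low counts limit *Mme* and *Mmel1* most, and the median SE of a difference was 0.11. The count of genes that passed the test, 40, fell to 0 with neither trend nor weights (1017 genes with an unadjusted p under 0.05), so that *Ecel1* did not pass it either, and to 3 with the forebrain excitatory covariate, and ran from 20 to 66 with 1 library left out: 21 without OVX replicate 1, 26 without E2 replicate 1, 20 without E2 replicate 2 and 66 without E2 replicate 3. It was 35 with the replicate block, where the numbers pair no samples. The cause was not tested. With the forebrain excitatory covariate the *Ecel1* difference was 0.90 and that of *Ece1* turned to -0.037, within its SE of 0.13. The members other than *Ecel1* did not pass the test under any of the 15 alternatives, the replicate block among them. *Mmel1* was fitted under 14, since a mean log2 CPM of at least 1 leaves it out. *Ece2* and *Mme* kept their sign in all of them. *Mmel1* did so too, but its listing through the OVX group alone fixed its direction, so nothing is read from that. The adjusted p-values between neighbours per kilobase changed with the length used. The union of exons gave 1.45 (*Ecel1* over *Ece2*), 0.24 (*Ece2* over *Ece1*), 4.75 (*Ece1* over *Mme*) and 0.30 (*Mme* over *Mmel1*). None of these was past the threshold after adjustment, although the gaps of 1.45 and 4.75 were wider than with the longest transcript. The coding length gave 0.17 for *Ece2* over *Ece1* and 2.09 for *Mme* over *Mmel1*. The coding length and robust empirical Bayes were added after the data were seen, the former in place of RefSeq protein lengths, which were not run. With 5 libraries the sign-flip test cannot pass the threshold.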
